A study of Mus musculus with 8 samples.

Results

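A set of 9 genes known for their work in germ cells was followed in the hippocampus of mice labelled as a conditional knockout of Sumo2 and of controls: Morc1, Tcfl5, Mael, Sycp3, Dazl, Hormad1, Tdrd1, Ddx4 and Stk31. The members were chosen by name, with earlier results of these data known, and 8 of the 9 have a row among the 17171 genes of the authors' deposited table. Hormad1 has none, so no change can be given for it, and what decided whether a gene has a row is not stated. Morc1 and Tcfl5 were higher in the group labelled SUMO2-cKO, by about 10-fold and 6.7-fold, and the other 6 genes did not pass the threshold.

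The group labelled SUMO2-cKO carried Sumo2 f/f and Emx1-Cre (4 samples), and the control group carried Sumo2 f/f without Cre (4 samples), so the loxP-flanked Sumo2 alleles were shared by both. All 8 samples were hippocampus of C57BL/6 mice at 2 months of age, and stranded mRNA libraries were sequenced. Emx1-Cre is active in the lineage that gives excitatory neurons, astrocytes and oligodendrocytes of the dorsal forebrain, so interneurons, microglia and vessels keep their alleles. The labels give no sex, litter or batch and do not say that the samples were separate animals, so a p-value here reflects variation among 8 samples that could be technical in part. SUMO2 is a small protein that is attached to other proteins, many of them regulators of chromatin, and the question was how its loss changes gene expression.

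Germ cells keep their genomes stable and pass through meiosis with proteins that other tissues do not normally make. MAEL, TDRD1, DDX4 and STK31 belong to the germ granules, where small piRNAs that silence transposons are made. SYCP3 and HORMAD1 form the axis along which meiotic chromosomes pair, and DAZL binds germ cell mRNAs. MORC1 is an ATPase of the male germ line needed to repress transposons, and TCFL5 is a basic helix-loop-helix transcription factor of the testis. In somatic cells many such genes are kept silent by DNA methylation of CpG-rich promoters and by PRC1.6, a Polycomb complex that reaches DNA through MGA and MAX, which read the E-box CACGTG, and through E2F6, which reads sites such as GCGGGAA.

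The promoters are shown because these 2 motifs occur in some members and not in others. Promoter sequences of 8 members were found in the RefSeq table of build GRCm38.p6, which covers 250 bases before to 50 after each gene's start. Morc1 has no entry there. The 250 bases before the start are printed 5′ to 3′ for Tcfl5 (chr2:180642692-180642941, minus strand), the member with an entry that rose, and for 3 that were not called, Mael (chr1:166238745-166238994, minus strand), Sycp3 (chr10:88459337-88459586, plus strand) and Ddx4 (chr13:112652311-112652560, minus strand). Capitals mark CACGTG, which reads the same on both strands, and GCGGGAA on either strand.
Tcfl5: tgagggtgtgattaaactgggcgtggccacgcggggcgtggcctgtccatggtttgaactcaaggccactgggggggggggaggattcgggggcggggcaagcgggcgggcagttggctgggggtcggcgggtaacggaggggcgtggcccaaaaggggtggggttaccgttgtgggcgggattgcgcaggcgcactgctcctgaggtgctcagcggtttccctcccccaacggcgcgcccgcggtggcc
Mael: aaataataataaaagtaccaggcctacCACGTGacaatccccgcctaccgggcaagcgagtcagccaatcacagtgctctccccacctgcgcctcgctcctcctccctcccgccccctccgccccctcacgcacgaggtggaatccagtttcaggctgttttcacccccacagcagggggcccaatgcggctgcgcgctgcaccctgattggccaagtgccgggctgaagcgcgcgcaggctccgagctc
Sycp3: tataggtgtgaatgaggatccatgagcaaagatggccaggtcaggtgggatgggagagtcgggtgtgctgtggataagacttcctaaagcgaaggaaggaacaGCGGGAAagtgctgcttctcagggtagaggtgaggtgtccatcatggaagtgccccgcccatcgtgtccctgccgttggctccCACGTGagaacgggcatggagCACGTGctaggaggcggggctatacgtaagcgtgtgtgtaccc
Ddx4: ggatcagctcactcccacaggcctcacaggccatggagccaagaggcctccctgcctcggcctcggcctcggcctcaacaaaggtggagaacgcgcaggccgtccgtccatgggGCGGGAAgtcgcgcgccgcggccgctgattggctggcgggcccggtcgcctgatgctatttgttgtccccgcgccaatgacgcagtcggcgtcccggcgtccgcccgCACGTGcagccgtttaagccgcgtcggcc

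CACGTG occurred in the 300-base window of 6 of the 8 members with an entry (75%), against 11.1% of the 11684 genes of the deposited table that have one. Those 6 were Mael, Sycp3, Hormad1, Tdrd1, Ddx4 and Stk31, and without Hormad1, which has no row, 5 of 7 held it (71.4%). Those 5 are also in the list, used below, of genes known to be silenced by promoter methylation or PRC1.6. The choice of members may thus account for the share, which is a description only. Sycp3 held the E-box at 64 and 43 bases before the start, with GCGGGAA at 147 bases, and Ddx4 held it at 29 bases with GCGGGAA at 136. In Mael the E-box lay at 223 bases before the start. GCGGGAA, searched on both strands, occurred in 3 of the 8 (37.5%), namely Sycp3, Hormad1 and Ddx4, against 9.13% of the same 11684 genes, and without Hormad1 in 2 of 7 (28.6%). Neither motif was found in the windows of Tcfl5, which was called higher, and of Dazl, which was not called and is not printed above. The 2 motifs do not overlap each other in these windows.

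The 8 members with an entry held 15 to 38 CpG dinucleotides in the richest entry of each gene. Over the 32851 single entries of the table the median was 7, which is not a value per gene. Tcfl5 held 35 and Ddx4 38, while Sycp3 held 15, more than 65.4% of entries. Of the 27025 genes with an entry, 10038 had at least 15 CpG in the richest one, and of these 12.8% held CACGTG and 11.4% held GCGGGAA. Of the 98 genes called higher that have an entry, 8.16% held CACGTG and 9.18% held GCGGGAA. A match describes letters in this window and not a bound site.

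All changes below are log2 fold changes of SUMO2-cKO over control from the authors' deposited table. The standard error (SE) is that value divided by the authors' Wald statistic, and a 95% interval is the value plus and minus the matching normal quantile times the SE. Genes with an adjusted p under 0.05 count as called. Of the 17171 genes, 257 (1.5%) were called, 166 (0.967%) higher and 91 (0.53%) lower. The table's 8 columns of values per sample carry names that match no sample label, so they were not used, and levels, depth, values per sample and standard deviations are not analysed here. For the targeted gene, Sumo2, the authors' deposited table gives 0.42 (SE 0.252, interval -0.07 to 0.92, adjusted p = 0.761). A fall in Sumo2 RNA was thus not seen in the group labelled SUMO2-cKO. Which exons are flanked by loxP is not in the sources, so this value does not check the genotype labels. The groups are therefore named as labelled.

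Morc1 (ENSMUSG00000022652, chromosome 16, 48431237 to 48630900, plus strand, GRCm38) was listed at 3.37 (SE 0.548, interval 2.30 to 4.45) in the authors' deposited table. This is 10.4-fold higher in the group labelled SUMO2-cKO, with an interval of 4.92 to 21.8-fold, and the authors' adjusted p was 4.1e-07. Tcfl5 (ENSMUSG00000038932, chromosome 2, 180621956 to 180642708, minus strand) was listed at 2.74 (SE 0.407, interval 1.94 to 3.54) in the same table. That is 6.68-fold higher, with an interval of 3.85 to 11.6-fold, and the authors' adjusted p was 1.2e-08. Both were chosen with these values known, so the values describe them, and no inference is drawn from 2 of 8 members being called beside 0.967% of all genes called higher.

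Among the 166 genes called higher, Morc1 had the largest log2 fold change and Tcfl5 the second largest, against a median of 0.43 for that group in the authors' deposited table. The intervals of both genes overlap, so their order is not resolved. Over all genes, called or not, they ranked 2 and 4. The 2 other genes of that size were not called: in the authors' deposited table, Gm5741 stood at 4.93 (SE 2.50, adjusted p = 0.591) and Scn4a, a skeletal muscle sodium channel, at 2.95 (SE 0.968, adjusted p = 0.105). These 2 were named after their values were seen.

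**Figure D1:**
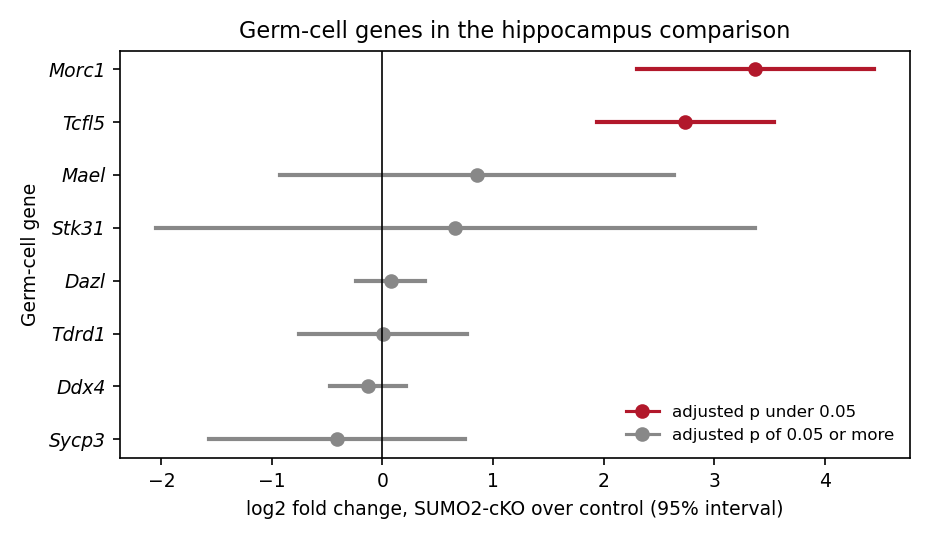
Log2 fold change of SUMO2-cKO over control for the 8 germ-cell genes with a row in the authors' deposited table (points) with 95% intervals (lines), one gene per row. Morc1 at 3.37 and Tcfl5 at 2.74 lie clear of 0, and the intervals of the other 6 genes include 0.

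The germ granule genes did not pass the threshold. Ddx4, the Vasa helicase (chromosome 13, 112598333 to 112652475), stood at -0.13 (SE 0.176, interval -0.47 to 0.22) in the authors' deposited table. Tdrd1, a Tudor domain scaffold that binds PIWI proteins (chromosome 19, 56826209 to 56870012), stood at 0.01 (SE 0.386, interval -0.75 to 0.76). Both intervals end below 1.94, the lower end of that of Tcfl5, which was chosen with its value known. Mael, a germ granule protein needed for transposon silencing (chromosome 1, 166201201 to 166238747), had 0.86 (SE 0.911, interval -0.93 to 2.64) in the authors' deposited table. Stk31, a Tudor domain protein with a kinase-like domain (chromosome 6, 49395604 to 49469501), had 0.66 (SE 1.38, interval -2.05 to 3.37). These 2 intervals are too wide to separate either gene from Tcfl5, and a rise of 10.3-fold lies within that of Stk31. The authors' adjusted p was 0.9996 for each of these 4 genes.

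Of the meiotic and RNA-binding members, Sycp3 (chromosome 10, 88459569 to 88473236), the lateral element protein of the synaptonemal complex, stood at -0.41 (SE 0.591, interval -1.57 to 0.75) in the authors' deposited table. Dazl (chromosome 17, 50279395 to 50293636), a regulator of translation in germ cells, stood at 0.07 (interval -0.24 to 0.39). Dazl had the smallest SE of the 8, and its upper limit corresponds to a 1.31-fold rise. Of the 6 members not called, 4 had a positive and 2 a negative value, with a median of 0.04, against -2.2e-04 over all genes of the authors' deposited table. None of the 6 reached an unadjusted p of 0.05 in that table, which 8.37% of all genes did. For 4 of them, Sycp3, Dazl, Tdrd1 and Ddx4, the upper limit lay under the lower limit of Tcfl5, and Mael's upper limit of 2.64 lay under the value of Tcfl5 but not under its interval. The share of all genes with such limits was not counted. Tcfl5 was chosen with its value known, and only 3 genes called higher had a log2 fold change of at least 2. With a median SE of 0.0940 over all genes, such a limit is common and is no result about these members.

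The members were among the less precisely measured genes. All 8 had an SE above the median of all genes, 0.0940, and 6 had one above the upper quartile, 0.226, in the authors' deposited table. Of all genes, 13.2% had a larger SE than Tcfl5 and 6.97% a larger one than Morc1, against 0.652% for Mael and 0.169% for Stk31. Among the 2310 genes with an SE of at least 0.4, 6 were called (0.260%), each of them higher, and these include Morc1 and Tcfl5. Below that SE, 1.69% of genes were called. The cut of 0.4 lies just under the SE of Tcfl5, 0.407, so its placement puts both genes above it. A larger SE makes the statistic smaller for the same change, so these shares are no result about the pair.

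**Figure D2:**
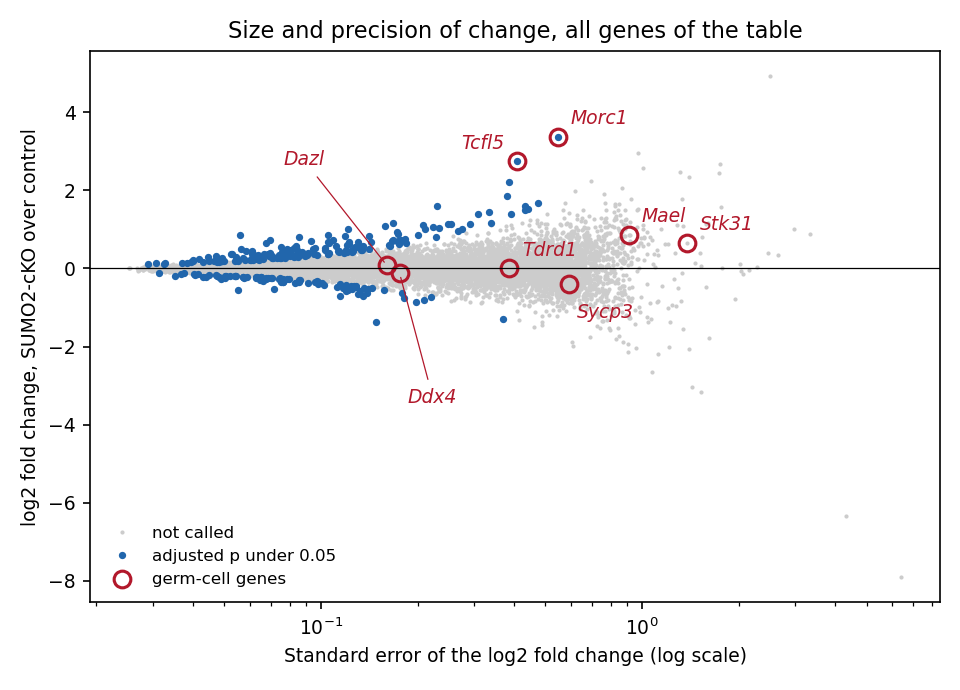
Log2 fold change of SUMO2-cKO over control (vertical) against its standard error (horizontal, log scale) for the 17171 genes of the authors' deposited table; blue points are the 257 called genes and red circles the 8 germ-cell genes. Morc1 and Tcfl5 lie above the other called genes at a standard error of 0.548 and 0.407, and Mael and Stk31 lie far to the right among genes that were not called.

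The called genes nearest in size to each member were taken by the absolute difference in log2 fold change over 1 comparison. Beside the pair itself they were the same 4 for both, Ltbp2, Dkkl1, D030055H07Rik and Pcdhb8. Morc1 and Tcfl5 have the 2 largest values among the genes called higher. The next in size are thus nearest to both by construction, and the shared list is no result about the pair. In the authors' deposited table, Ltbp2, an extracellular protein of microfibrils, stood at 2.21 (SE 0.384, adjusted p = 4.2e-06). Dkkl1, a secreted protein of the sperm acrosome, stood at 1.85 (SE 0.381, interval 1.11 to 2.60, adjusted p = 2.8e-04). The authors' deposited table lists the noncoding D030055H07Rik at 1.68 (SE 0.475, adjusted p = 0.0338) and the protocadherin Pcdhb8 at 1.61 (SE 0.231, adjusted p = 3.0e-09). Likeness here is in size of change only, since values per sample were not used.

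Shared sequence and overlapping genes were checked for read assignment. None of the 2996 distinct 50-base windows in the coding transcripts of Morc1, and none of the 2176 of Tcfl5, occurred in a transcript of another gene in GENCODE M21. For Tdrd1 1 of 5406 windows did so, and for Hormad1, which has no row, 406 of 1773 (22.9%), while the other members had none. Only exact matches in the sense direction of annotated transcripts were searched. Copies in reverse orientation or outside annotated transcripts could not be found this way. The last 234 bases of Tcfl5 overlap the end of Col9a3, a collagen gene on the opposite strand, and Col9a3 stood at -0.11 (SE 0.407, interval -0.91 to 0.68) in the authors' deposited table. Sycp3 lies wholly within Chpt1, a phospholipid synthesis gene on the opposite strand, which stood at -0.04 (SE 0.0579). Stk31 contains the pseudogene Gm17060 on the opposite strand. The libraries were stranded, but the sources do not state how strand was treated in counting, so reads of such pairs may have been mixed or dropped. Their part in the values was not tested.

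The regions around the pair were looked at for other called genes. Within 1 Mb of Morc1, 4 genes have a row, with values from -0.58 to 0.19 in the authors' deposited table. The nearest, Dzip3, a ubiquitin ligase gene 293331 bases away, stood at 0.06 (SE 0.0446). Of the 10 other coding genes annotated in that window, 7 have no row, among them Dppa2 and Dppa4, known from pluripotent and germ cells. Around Tcfl5, 52 genes have a row, with a median of 0.01 in the authors' deposited table. Dido1, 15255 bases away, stood at 0.00 (SE 0.0419). Of these 56 neighbours, 0 were called in the authors' deposited table, against 1.5% of all genes, and 3, all near Tcfl5, reached an unadjusted p of 0.05, against 8.37%. With so few genes, a count of 0 is near the share over all genes and is no result about the regions.

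**Figure D3:**
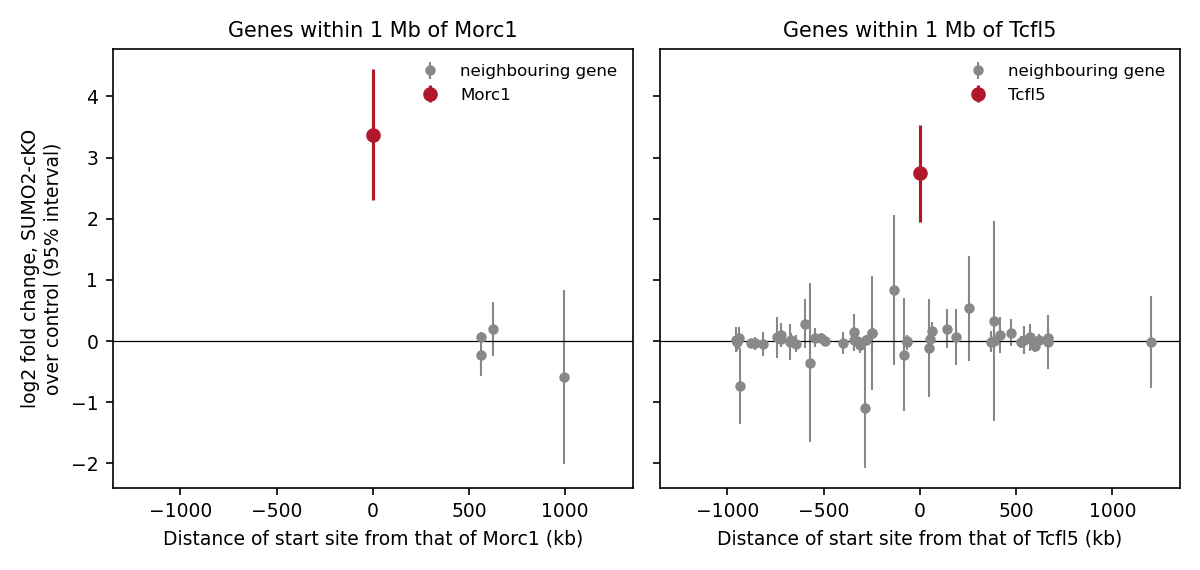
Log2 fold change of SUMO2-cKO over control with 95% intervals (vertical) for genes within 1 Mb of Morc1 (left) and Tcfl5 (right), by distance of the start site in kb along the direction of transcription (horizontal). Morc1 and Tcfl5, in red at 0 kb, stand above their 4 and 52 neighbours, in grey, none of which was called.

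The wider germ line programme was described with further lists. Over 5 germline lists and the members, counted once each, 132 genes were named and 69 have a row, of which 59 had an SE above the median of all genes in the authors' deposited table. Of the 69, 3 were called (4.35%), Morc1, Tcfl5 and Syce2. Without Morc1 and Tcfl5, which were chosen with their values known, 1 of 67 (1.49%) was called, near the 1.5% of all genes, and 30 of the 67 had a positive value, with a median of -0.02. The lists do not hold every germ cell gene: the sperm genes Dkkl1, Plcz1 and Rimbp3, which passed the threshold in the authors' deposited table with positive values, are in none of them. Plcz1 and Rimbp3 were named after their values were seen.

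The piRNA pathway and germ granule list had 15 of 22 genes with a row and 0 called in the authors' deposited table, with 0 at an unadjusted p of 0.05 and a median of -0.09. Over all genes these shares were 1.5% and 8.37%, and 13 of the 15 had an SE above the median of all genes. Counts of 0 in so few genes are therefore no result about the pathway. The smallest p-values were those of Tdrd6, a Tudor protein of the chromatoid body, at -0.46 (SE 0.313), Exd1 at 0.27 (SE 0.199) and Tdrkh, a partner of PIWI proteins, at -0.07 (SE 0.0558). Piwil2, a PIWI protein itself, stood at -0.09 (SE 0.303) in the authors' deposited table. Piwil1, Piwil4, Mov10l1 and Asz1 have no row.

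Of the genes of the meiotic chromosome axis, synapsis and recombination, 27 of 42 have a row, 1 was called higher and 0 lower in the authors' deposited table (median 0.10). That gene was Syce2, a central element protein of the synaptonemal complex, at 0.44 (SE 0.126, interval 0.19 to 0.69, 1.36-fold, adjusted p = 0.0375). Next by p-value were Tex15 at 0.30 (SE 0.176, adjusted p = 0.737) and the mismatch repair gene Mlh3 at -0.08 (SE 0.0531, adjusted p = 0.878). Dmc1, the meiotic recombinase, stood at 0.48 (SE 0.340) and Smc1b, a meiotic cohesin, at 0.84 (SE 0.681) in the authors' deposited table, neither of them called. Sycp1 and Stra8 have no row.

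Among germ cell transcription factors and RNA-binding proteins, 19 of 33 have a row, and Tcfl5 was the 1 called in the authors' deposited table. The list's median was -0.05, and 5 of its 19 genes with a row, Tcfl5 among them, reached an unadjusted p of 0.05, against 8.37% of all genes. Dmrtb1, a regulator of the entry into meiosis, stood at -1.46 (SE 0.489, interval -2.42 to -0.50, unadjusted p = 0.00281, not called after adjustment), and Zbtb16, a factor of spermatogonial stem cells, at 0.25 (SE 0.119, adjusted p = 0.506). Lhx8 stood at -3.17 (SE 1.53, adjusted p = 0.522) and Nanos1 at -0.13 (SE 0.0644, adjusted p = 0.567). Genes known to be silenced outside the germ line by promoter methylation or PRC1.6 had 17 of 37 with a row and 0 called, with 0 at an unadjusted p of 0.05 and a median of 0.07. Over all genes these shares were 1.5% and 8.37%, so counts of 0 in 17 genes are no result about the list. The smallest p-values in that list were those of Tex15, of Dnmt3l, a cofactor of DNA methylation in germ cells, at -1.24 (SE 0.727), and of Brdt, a testis bromodomain protein, at 0.10 (SE 0.0665) in the authors' deposited table. The members Dazl, Ddx4, Mael, Sycp3, Tdrd1 and Stk31, are in this list.

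**Figure D4:**
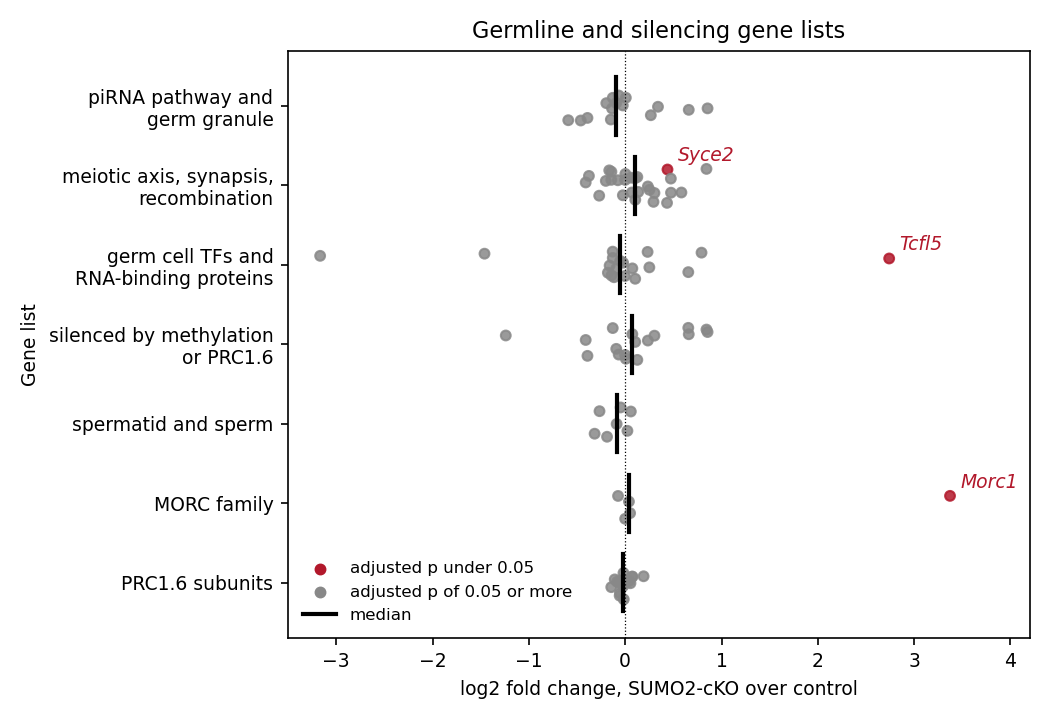
Log2 fold change of SUMO2-cKO over control (horizontal) for the genes with a row in each of 7 lists (points; red for an adjusted p under 0.05) with the list's median (black bar). Morc1 at 3.37, Tcfl5 at 2.74 and Syce2 at 0.44 are the called genes, and the medians lie between -0.09 and 0.10.

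The other MORC genes and the subunits of PRC1.6 were looked at next. The 4 relatives of Morc1, which encode ATPases that compact chromatin, all have a row, and 0 were called or reached an unadjusted p of 0.05 in the authors' deposited table. Over all genes, 1.5% were called and 8.37% reached that p, so 0 of 4 is near those shares and is no result about the family. Morc3 stood at 0.05 (SE 0.0561, interval -0.06 to 0.16), Morc2a at 0.04 (SE 0.0540), Morc4 at -0.07 (SE 0.115) and Morc2b at 0.00 (SE 0.196). The 16 subunits of PRC1.6 all have a row and 0 were called, with a median of -0.02 and values from -0.14 to 0.19 in the authors' deposited table. With 16 genes, 0 called is near the 1.5% of all genes and is no result about the complex. Of the 16, 2 reached an unadjusted p of 0.05, against 8.37% of all genes. They were the deacetylase Hdac1 at 0.19 (SE 0.0891, adjusted p = 0.484) and Tfdp2, a partner of E2F factors, at -0.14 (SE 0.0716, adjusted p = 0.565). Next by p-value was Tfdp1 at -0.11 (SE 0.0828). In the authors' deposited table, Mga stood at -0.06 (SE 0.0652), Max at -0.05 (SE 0.0508) and E2f6 at 0.04 (SE 0.0769).

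Other cells' markers were checked beside the members. Over all genes, 1.5% were called and 8.37% reached an unadjusted p of 0.05. In lists this short, 0 called is near that share and is no result about a list. Of 23 genes of spermatids and sperm, 7 have a row, 0 were called and 0 reached an unadjusted p of 0.05 in the authors' deposited table (median -0.09), with Spata18 at -0.32 (SE 0.221), Tekt1 at -0.27 (SE 0.220) and Acr at -0.19 (SE 0.328). The protamines Prm1 and Prm2 and the transition proteins Tnp1 and Tnp2, which package sperm DNA, have no row. All 15 hippocampal neuron markers have a row and 0 were called, while 4 reached an unadjusted p of 0.05 (median -0.02), with Cnih3 at 0.22, Map2 at 0.10 and Neurod6 at -0.12. Choroid plexus and ependymal markers were negative in 12 of 12 with 0 called and 1 at an unadjusted p of 0.05 (median -0.26), with Foxj1 at -0.30, Tmem212 at -0.34 and Ccdc153 at -0.26. Oligodendrocyte markers were negative in 10 of 10 (median -0.43), and 10 of 10 reached an unadjusted p of 0.05, against 8.37% of all genes. Of them 2 were called lower, Ermn at -0.55 (SE 0.121) and Mog at -0.45 (SE 0.129), with Cldn11 next at -0.47 in the authors' deposited table. In bulk tissue, fewer cells of a type and less RNA per cell cannot be told apart. The part of these markers in the values of Morc1 and Tcfl5 was not tested.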

How the data were processed

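RNA of mouse hippocampus was sequenced in 4 SUMO2-cKO and 4 control samples. Reads were trimmed, aligned and counted by the authors with tools that the submitters' processing notes list without versions (cutadapt and Trim Galore, STAR, HTSeq, DESeq2). Build, annotation and strand treatment: not given in the sources used here. Per the file headers, the authors deposited for each gene the log2 of the knockout to wild type ratio, a Wald statistic (a score in units of the standard error), and p-values before and after adjustment. The 8 columns of normalized values per sample match no sample label and were used in no step, so no own gene-level test was run, as the design provides for that case, and depth is unknown. Deposited p-values differed from normal p-values of the statistics by at most 2.8e-15, and deposited adjusted p-values from own Benjamini-Hochberg values over 17171 genes by at most 9.6e-15; the latter calculation was tested on simulated data.

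Standard errors were obtained by dividing each log2 ratio by its statistic. Of the identifiers, 16955 were in GENCODE M21 (GRCm38), used for positions, overlaps and 50-base windows. Named genes were the members, in each list the called genes and the 3 with the smallest p-value, called genes within 1 Mb of Morc1 or Tcfl5, and the 5 called genes nearest in log2 fold change to each of them. Other genes named, Gm5741, Scn4a, neighbouring and overlapping genes, Piwil2, Dmc1, Smc1b, Lhx8, Nanos1, Mga, Max, E2f6, Plcz1, Rimbp3 and Zar1 among them, were chosen after their values were seen. The members and lists were chosen with earlier results of these data known. The work used scipy 1.17.1, pandas 2.3.3, numpy 2.4.6 and, for figures, matplotlib 3.10.9, under Python 3.11.15. Alternatives were an adjusted p of 0.1, a fold of at least 1.5, Bonferroni, adjustment over the 15416 coding genes, and the 250 bases before the start for the motifs.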

Additional observations from a re-analysis of the deposited data

How the results depend on the processing

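Morc1 and Tcfl5 passed under each of the 4 other thresholds tried, an adjusted p of 0.1, a fold of at least 1.5, Bonferroni and adjustment over coding genes alone, and the other 6 members passed under none of them. The 56 neighbours had 0 calls under these settings. Beside the members, calls in the lists and among the genes nearest in size to the pair were followed. Of these, Syce2, Ermn and Mog lost their calls with a fold of at least 1.5 and with Bonferroni. D030055H07Rik lost its call with Bonferroni, and such losses come by construction of stricter thresholds. Plcz1, Rimbp3 and Zar1 were not followed under these settings, though the adjusted p of Zar1, 0.0700, lies under 0.1. The 257 calls became 67 (56 higher, 11 lower) with the fold and 79 (64 higher, 15 lower) with Bonferroni, and the 91 lower calls became 150 with an adjusted p of 0.1. The share of members holding each motif was the same in the 250 bases before the start. No paired analysis was possible because the value columns show no replicate number that the labels use. An own limma fit, pseudocounts, filters and leaving out each replicate need values per sample and were not run. Depth was not analysed, and the SE joins it with the spread between samples. At the smallest statistic of any called gene, 3.37 SE, a call would need a log2 change of 4.66 for Stk31 and 0.54 for Dazl.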

Other observations

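Outside the lists, 3 further genes of sperm or egg were looked up after the table was seen, so their values are a description. All 3 are positive, and they do not stand for germ cell genes at large. Of the 67 list genes other than Morc1 and Tcfl5, 30 were positive, with a median of -0.02. Among those below 0 were Lhx8 at -3.17, Dmrtb1 at -1.46 and Dnmt3l at -1.24, none of them called. Plcz1, the sperm phospholipase that starts calcium oscillations in the egg, stood at 1.13 (SE 0.255, interval 0.63 to 1.63, adjusted p = 0.00165) in the authors' deposited table. Rimbp3, a protein of the spermatid manchette, stood at 0.55 (SE 0.130, interval 0.29 to 0.80, adjusted p = 0.00395). Zar1, a maternal factor of the oocyte, stood at 2.24 (SE 0.695, interval 0.88 to 3.61) in the authors' deposited table and was not called (adjusted p = 0.0700).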
